A study of Mus musculus with 9 samples.

Results

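Of the 56980 genes in the deposited table, 10 were described here by name: Ctla4, Pdcd1, Lag3, Tigit, Havcr2, Icos, Cd28, Tox, Foxp3 and Cd274. They were proposed with the aged-over-young results of these same libraries in view, so their age differences are given as a description, with no test. The groups are 4 young mice at 3 months and 5 aged mice at 20 months, all C57BL/6 of wild-type genotype and female by the series text, with 1 bulk RNA library per mouse as labelled replicates. The treatment label is none for the young mice and gives only the age for the aged mice. The labels name bone marrow as the tissue, while the protocol describes homogenised trabecular bone, so a library can hold marrow cells and bone cells together.

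T cells are switched on by their antigen receptor together with costimulatory receptors, and are held back by checkpoint receptors that meet ligands on other cells. CTLA-4 competes with CD28 for the same CD80 and CD86 ligands, PD-1 binds PD-L1 and PD-L2, LAG-3 binds MHC class II, and TIGIT binds the poliovirus receptor. Regulatory T cells, defined by the transcription factor FOXP3, carry CTLA-4, ICOS and TIGIT, and bone marrow is known as a home of memory and regulatory T cells. The label of T cell receptors holds only in part for the 10 genes. Tox and Foxp3 encode transcription factors, Cd274 encodes the ligand PD-L1, and Havcr2 and Cd274 are also used by macrophages and dendritic cells.

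In the genome Cd28, Ctla4 and Icos, which encode related receptors, lie side by side on mouse chromosome 1. Cd274 likewise lies beside Pdcd1lg2, the gene of PD-L2, on chromosome 19. RefSeq promoter windows (GRCm38.p6) were found for 6 of the 10 genes, with 7 windows in all. The 250 bases before the start are shown for the receptors with the largest differences between the age groups and for the ligand Cd274, on the gene's own strand, with capitals marking matches to the motifs searched. The windows are chr1:60908775-60909024 (plus strand) for Ctla4, chr16:43664185-43664434 (minus) for Tigit, chr1:94052554-94052803 (minus) for Pdcd1 and chr19:29367188-29367437 (plus) for Cd274.
Ctla4: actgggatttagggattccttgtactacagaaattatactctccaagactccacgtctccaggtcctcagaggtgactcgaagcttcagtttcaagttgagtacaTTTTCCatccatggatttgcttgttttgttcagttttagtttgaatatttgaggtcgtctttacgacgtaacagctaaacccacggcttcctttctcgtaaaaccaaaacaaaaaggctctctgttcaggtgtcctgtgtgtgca
Tigit: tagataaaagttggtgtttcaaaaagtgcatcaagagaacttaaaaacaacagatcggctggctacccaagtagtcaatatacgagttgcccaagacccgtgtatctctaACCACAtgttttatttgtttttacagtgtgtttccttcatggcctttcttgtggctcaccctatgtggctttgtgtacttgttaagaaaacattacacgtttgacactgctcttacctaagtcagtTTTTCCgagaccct
Pdcd1: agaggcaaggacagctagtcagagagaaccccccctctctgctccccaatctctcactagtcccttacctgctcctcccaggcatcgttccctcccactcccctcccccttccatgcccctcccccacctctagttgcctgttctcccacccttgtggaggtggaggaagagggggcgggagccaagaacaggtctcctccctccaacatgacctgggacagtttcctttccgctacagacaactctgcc
Cd274: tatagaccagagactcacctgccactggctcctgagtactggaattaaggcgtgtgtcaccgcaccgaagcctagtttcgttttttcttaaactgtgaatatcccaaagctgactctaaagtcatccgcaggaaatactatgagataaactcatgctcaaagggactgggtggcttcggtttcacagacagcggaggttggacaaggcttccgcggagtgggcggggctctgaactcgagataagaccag

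Both strands were searched for 7 motifs. The letters GGAAAA, a core bound by NFAT, the factor that the T cell receptor activates, stood in 3 of the 7 windows (Ctla4, Tigit and 1 of the Foxp3 windows), beside 20.4% of 32851 promoter windows of the same length. RUNX letters (TGTGGT) stood in 2 of the 7 windows (Tigit and Havcr2) beside 14.0% of all windows. The AP-1 motif TGANTCA stood in the Havcr2 window (6.75% of all windows). A STAT motif, TTCNNNGAA, overlapped the NFAT core in a Foxp3 window (7.02%), and TATAAA stood in the other Foxp3 window (12.4%). The IRF motif (the ISRE) and the NF-kB letters GGGANTTCC had no match in the 7 windows, beside 2.98% and 1.43% of all windows. The Pdcd1 and Cd274 windows held no match to any of the 7 motifs.

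The libraries held 19804783 to 23548521 estimated counts, and several features of the series touch these genes. Young 4, aged 3 and aged 4 stood apart from the other 6 libraries, with ribosomal protein genes at 5.63% to 6.54% of counts against 2.85% to 3.07%, and are given separately below. Xist had 7909 to 21724 counts in aged 1 to 4 and at most 9 in the young libraries and aged 5, while the Y-linked gene Ddx3y had 0 counts in aged 1 to 4 and 888 to 1721 in the young libraries and aged 5. The stated female sex therefore did not match 5 of the 9 libraries, and age cannot be told apart from sex chromosome content except through aged 5.

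All 10 transcripts had a higher mean level in aged than in young libraries, from 1.51-fold for Cd28 to 24.4-fold for Pdcd1. Levels are in CPM, counts scaled to library size with TMM factors, which adjust for composition. In 5 of the 10 (Ctla4, Tigit, Havcr2, Icos and Tox) every aged library lay above every young library, which 1.67% of the 16576 genes tested did in that direction. On the deposited TPM scale this held for 4 genes (Ctla4, Lag3, Tigit and Tox, beside 1.53% of genes), and with scaling to library totals for 5 (Ctla4, Lag3, Tigit, Icos and Tox, beside 2.24%). Within the 6 libraries without the set of 3, all 10 genes separated the groups (13.7% of genes did). Aged 3 and aged 4 were both above young 4 in all 10 (25.2% of genes). Because the genes were chosen with this contrast known, nothing is read from these counts.

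**Figure D1:**
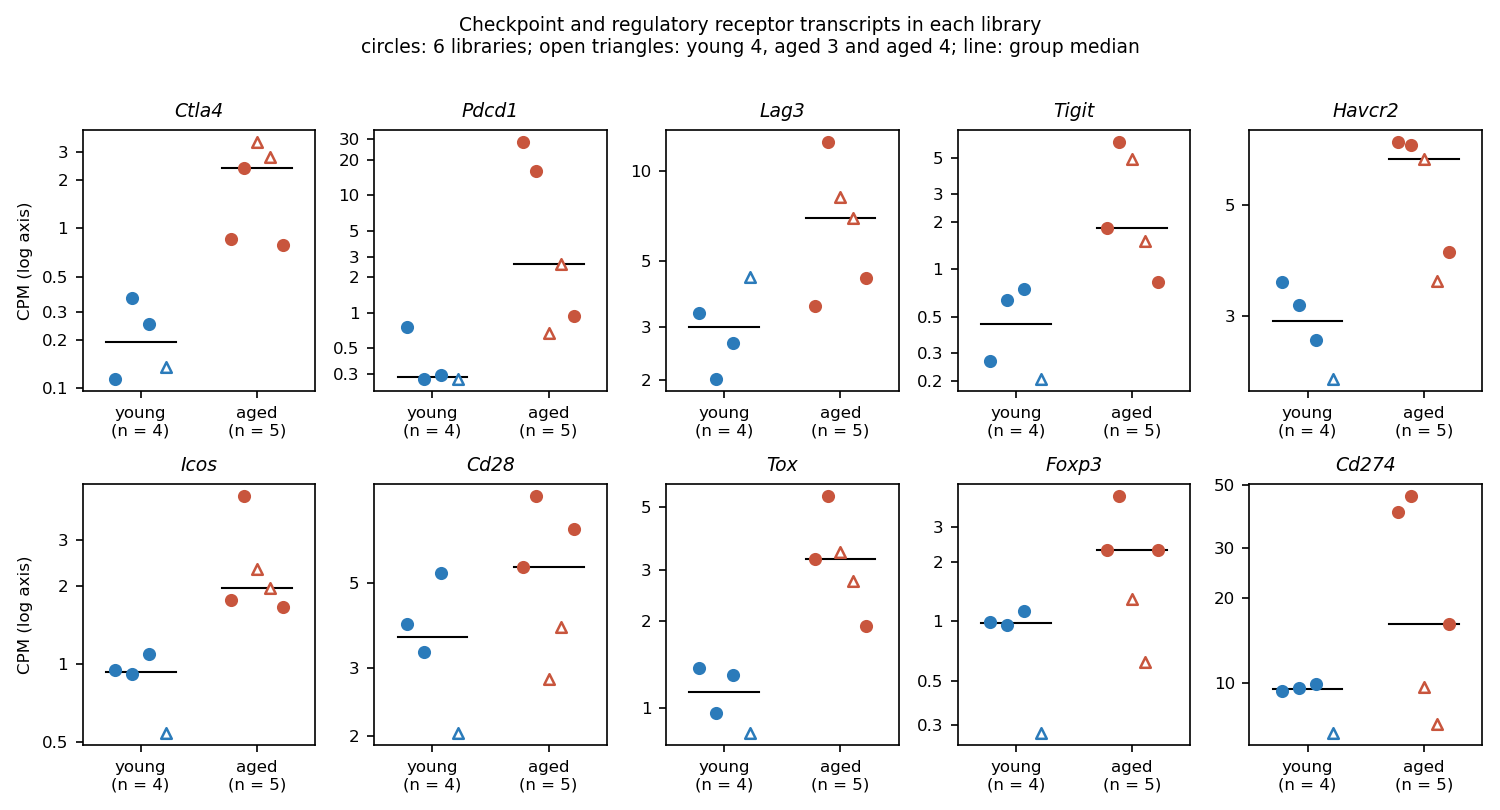
Level of each of the 10 transcripts in every library, in CPM on a log axis whose range differs between panels. Circles are the 6 libraries, open triangles young 4, aged 3 and aged 4, and lines are group medians. Ctla4, Tigit, Havcr2, Icos and Tox show no overlap between young and aged libraries, while Pdcd1 and Cd274 stand highest in aged 1 and aged 2.

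Among the inhibitory receptors, Ctla4 (ENSMUSG00000026011), the receptor that competes with CD28 for its ligands, was scarce in young libraries, at 0.114, 0.366, 0.252 and 0.136 CPM in young 1 to 4. It was at 0.863, 2.40, 3.49, 2.80 and 0.791 CPM in aged 1 to 5. The lowest aged library thus lay above the highest young one, and aged 2, 3 and 4 stood above aged 1 and aged 5. These levels rest on 2 to 8 counts per young library (19 in all) and 20 to 57 per aged library (206 in all). Mean levels differed by 9.54-fold, and the log2 fold change was 3.20 (SE 0.65). None of the young libraries reached the minimum level of the filter on low counts, so Ctla4 was tested only through the aged libraries.

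Pdcd1 (ENSMUSG00000026285), the gene of PD-1, was at 0.760, 0.275, 0.294 and 0.272 CPM in young 1 to 4. Its level was 28.6 and 16 CPM in aged 1 and aged 2, and 0.674, 2.60 and 0.942 CPM in aged 3 to 5. Aged 1 and aged 2 held 92.2% of all Pdcd1 counts in the aged libraries, and aged 3 lay below young 1, so the groups overlapped. The log2 fold change was 4.56 (SE 1.22), and 1.78 (SE 0.69) without aged 1 and aged 2, a setting chosen after these values were seen. Without them the ratio of mean levels went from 24.4-fold to 3.51-fold. Only 1 young library passed the minimum level of the filter.

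Tigit (ENSMUSG00000071552), an inhibitory receptor of T and NK cells, was at 0.266, 0.641, 0.756 and 0.204 CPM in young 1 to 4. Aged libraries were at 1.81, 6.36, 4.96, 1.51 and 0.829 CPM. Aged 5 stood just above the highest young library, young 3, and aged 2 and aged 3 were the highest. The ratio of mean levels was 6.63-fold, with a log2 fold change of 2.70 (SE 0.72).

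Lag3 (ENSMUSG00000030124), which binds MHC class II, was measured at 3.35, 2.01, 2.65 and 4.41 CPM in young 1 to 4. In aged 1 to 5 it was at 3.54, 12.5, 8.15, 6.96 and 4.37 CPM. Young 4 lay above aged 1 and aged 5, so the groups overlapped, and aged 2 was the highest library. The log2 fold change was 1.2 (SE 0.415).

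Havcr2 (ENSMUSG00000020399), the gene of TIM-3, which T cells, macrophages and dendritic cells all use, was at 3.50, 3.16, 2.69 and 2.24 CPM in young 1 to 4. Aged 1 to 5 were at 6.69, 6.58, 6.19, 3.53 and 4.03 CPM. Aged 4 lay only just above young 1, and on the TPM scale, without TMM scaling, the groups overlapped. The log2 fold change was 0.90 (SE 0.30), among the smallest of the 10.

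The costimulatory receptors were Cd28 and Icos. Cd28 (ENSMUSG00000026012), which gives the T cell its main costimulatory signal, was at 3.92, 3.30, 5.29 and 2.04 CPM in young 1 to 4, and at 5.48, 8.41, 2.82, 3.84 and 6.89 CPM in aged 1 to 5. Its groups overlapped, with aged 3 below 3 of the young libraries. The log2 fold change of 0.59 (SE 0.39) was the smallest of the 10. Icos (ENSMUSG00000026009), an inducible relative of CD28 on activated and regulatory T cells, was at 0.951, 0.915, 1.09 and 0.543 CPM in young 1 to 4. Aged 1 to 5 were at 1.77, 4.45, 2.33, 1.97 and 1.66 CPM, all above the young libraries, with aged 2 far above the other aged ones. Its log2 fold change was 1.46 (SE 0.42).

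Tox (ENSMUSG00000041272) encodes a nuclear factor of T cell development and of T cells under lasting stimulation. Its level was 1.37, 0.961, 1.30 and 0.815 CPM in young 1 to 4, and 3.28, 5.47, 3.49, 2.75 and 1.92 CPM in aged 1 to 5. The groups did not overlap, and the log2 fold change was 1.59 (SE 0.38). Foxp3 (ENSMUSG00000039521), the factor that defines regulatory T cells, was at 0.989, 0.961, 1.13 and 0.272 CPM in young 1 to 4. In aged 1 to 5 it was at 2.29, 4.31, 1.29, 0.623 and 2.30 CPM, so aged 4 lay below 3 young libraries. The log2 fold change was 1.35 (SE 0.60). Foxp3 had non-whole estimated counts in all 9 libraries, and in GENCODE M21 its exons overlap those of 4 other genes, among them Flicr on the same strand (at most 13 counts in a library) and Ccdc22 on the opposite strand (495 to 1257 counts). Whether counting used strand is not given in the sources used here, so its level is uncertain.

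Cd274 (ENSMUSG00000016496), the gene of PD-L1, was the most abundant of the 10. It was at 9.35, 9.61, 9.95 and 6.65 CPM in young 1 to 4, and at 40.1, 45.8, 9.68, 7.17 and 16.1 CPM in aged 1 to 5. Aged 1, 2 and 5 stood above every young library, whereas aged 3 and aged 4 lay among them. Aged 1 and aged 2 held 73.0% of the aged counts. The log2 fold change was 1.42 (SE 0.54), and 0.32 (SE 0.32) without those libraries. Cd274 also had non-whole counts in all 9 libraries, and Cd274 and Tox each overlap 1 opposite-strand gene in GENCODE M21.

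Per transcript length, in deposited TPM, Cd274 had the highest median and Ctla4 the lowest in young libraries (3.24 TPM for Cd274, and 0.04 to 0.41 TPM over the libraries for Ctla4). Between them stood, in falling order, Lag3 (1.49), Havcr2 (1.35), Cd28 (1.02), Tigit (0.785), Foxp3 and Icos (0.44 each), Tox (0.34) and Pdcd1 (0.19 TPM). In aged libraries the order of medians was Cd274 (5.82), Tigit (4.09), Lag3 (3.03), Cd28 (2.05), Havcr2 (1.99), Ctla4 (1.19), Icos (1.14), Pdcd1 (1.11), Foxp3 (0.81) and Tox (0.63 TPM). Neighbours in either order had overlapping ranges over the libraries, except Lag3 and Cd28 in aged libraries, so the order itself is loose. Pdcd1 reached 25.49 TPM in aged 1, above every other value of the 10 genes in any library.

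Over all genes, the age-only fit (edgeR's quasi-likelihood test) found 0 of 16576 genes (0%) past the adjusted threshold of 0.05, and so 0 of the 10. At an unadjusted p under 0.05 it had 1457 genes, limma-voom called 0 genes, and DESeq2 called 360 (2.17%), 5 of the 10 among them. With the library set as a term in the edgeR fit, 319 genes (1.92%) were called, 0.615% of all genes as higher, with 1 of the 10 among them, Ctla4, whose log2 fold change was 2.92 (SE 0.605). Without any 1 of the 4 young libraries, aged 1, aged 2 or aged 4, 0 of the 10 were called, beside 0 to 2 of all genes. With aged 3 left out 5 of the 10 were called, beside 1633 of all genes. With aged 5 left out 6 were called, beside 712 of all genes. The 6 libraries alone gave 0 of the 10, beside 0.012% of genes. In the authors' deposited table, a set of 4 of the 10 (Ctla4, Pdcd1, Tigit and Tox) had an adjusted p under 0.05, beside 0.576% of the genes with a count that were called higher there. The members' choice used this contrast, so these counts are not evidence about them.

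**Figure D2:**
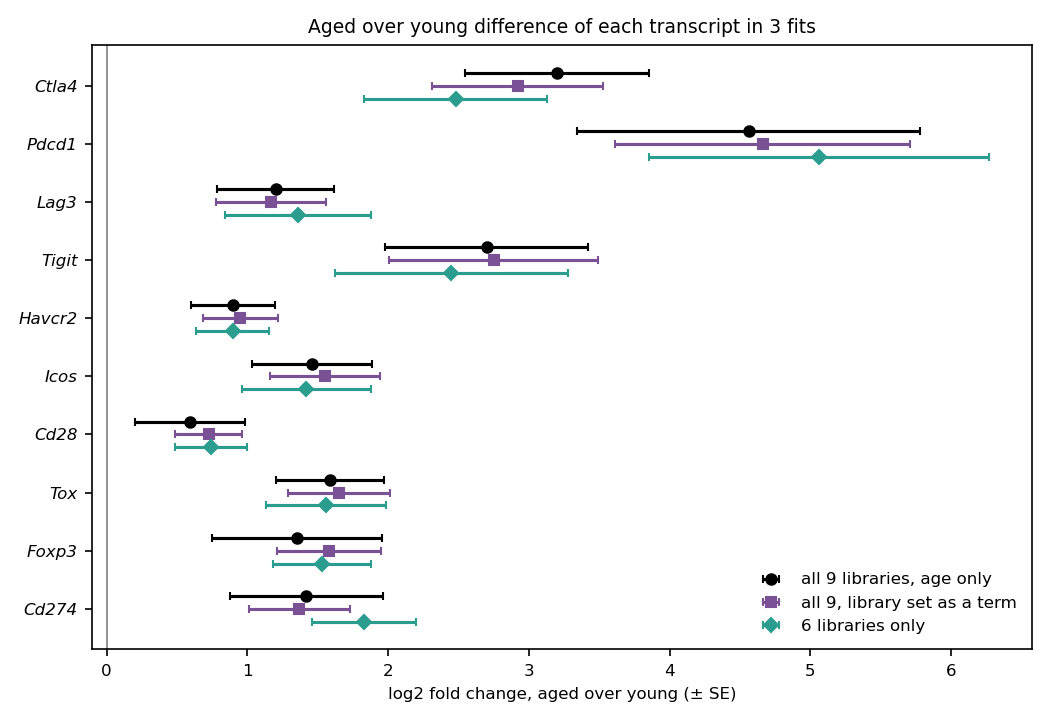
Log2 fold change, aged over young, with its SE, for each gene in the age-only fit, in the fit with the library set as a term, and in the 6 libraries alone. All estimates lie above 0, from 0.59 for Cd28 to 5.06 for Pdcd1 in the 6 libraries.

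The median log2 fold change over the 10 was 1.44, beside 0.029 over all tested genes, of which 53.5% lay above 0. Aged 5 and young 1 to 3 share Y-linked transcripts and belong to the 6. Between them the log2 differences were smaller than in the age-only fit for 9 of the 10, Cd28 being the exception, and above 0 in each, from 0.36 for Havcr2 to 1.69 for Ctla4 (1 aged library, with no test). Pdcd1 was at 1.05 and Tigit at 0.58 in that comparison. In the set of 3 libraries, with its single young library, they ran from 0.40 for Cd274 to 4.52 for Ctla4.

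A contrast that the choice of genes did not use is the one between the 3 libraries that stand apart and the other 6, with age as the other term. The split itself was taken from earlier results of these same libraries, their ribosomal protein share. Its adjusted p-values are therefore descriptive. Cd28, Foxp3 and Cd274 were lower in the 3, with log2 differences of −1.04 (SE 0.26, edgeR adjusted p = 0.00809), −1.71 (SE 0.41, adjusted p = 0.00698) and −1.41 (SE 0.40, adjusted p = 0.0146). The remaining 7 did not pass: Pdcd1 was at −2.76 (SE 1.13, adjusted p = 0.0668) and Ctla4 at 0.80 (SE 0.575, adjusted p = 0.278). These 3 calls of 10 stand beside 48.6% of all genes called in this contrast (24.6% higher and 24% lower), so a share of this size is near the background. The Cd274 call was lost without aged 3 or aged 4 (edgeR adjusted p = 0.0512 and 0.0641). Pdcd1 passed without aged 5 (−3.26, adjusted p = 0.00783), and Lag3, at 0.37 with all libraries, passed as higher without aged 2 (0.82, adjusted p = 0.0269). With scaling to library totals the median of all genes in this contrast moved from −0.028 to −0.55. Then 5 of the 10 were called, Pdcd1 and Havcr2 being added, beside 9003 of the 16576 genes tested. With the replicate number as a block, 0 of the 10 were called, and the number over all genes was not counted.

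Markers of T cells gave a mixed picture. The summed level of 10 T cell markers (among them Cd3d, Cd3e, Cd3g, Trac and Bcl11b) was 24.8, 26.4, 25 and 40.1 CPM in young 1 to 4 and 42.4, 80.5, 91.9, 77.8 and 40.5 CPM in aged 1 to 5. None of the 10 markers was at 0 in any library, and all 10 had a log2 fold change above 0 (median 1.28), 3 of them called with the set term. Between the library sets, 3 of these markers were called higher and 1 lower in young 4, aged 3 and aged 4, beside 24.6% and 24% of all genes. Ratios to their sum can thus also vary with the library set. The coreceptor genes, a separate list, went both ways: Cd4, which macrophages and dendritic cells can also use, was at 30.0 ± 6.32 CPM in young mice and 17.2 ± 7 CPM in aged mice, below every young library in 5 of 5 (log2 fold change −0.80, edgeR adjusted p = 0.490). Cd8a was at 3.22 ± 0.905 and 9.34 ± 2.51 CPM, above every young library in 5 of 5 (adjusted p = 0.255 in the age-only edgeR fit and 0.0405 once the library set was a term), and Cd8b1 at 1.63 ± 0.515 and 4.04 ± 1.2 CPM. Together the coreceptors summed to 28.6 to 42.3 CPM (young) and 18.9 to 39 CPM (aged). In bulk RNA, more cells of a type and more RNA per cell cannot be told apart. Macrophage markers (7 genes, 6 of them with a log2 fold change above 0) summed to 639 to 910 CPM in young libraries, to 2270 and 1500 CPM in aged 1 and aged 2 and to 685 to 1100 CPM in the other aged libraries. Dendritic cell markers (6 genes, 3 of them above 0, Itgax making up 56.4%) summed to 45.2 to 73.8 CPM in young libraries, 270 and 195 CPM in aged 1 and aged 2, and 47.6 to 71.6 CPM in aged 3 to 5. Itgax alone reached 239 CPM in an aged library, against at most 17.5 CPM in young ones. Each other dendritic cell marker was at most 18.8 CPM in any aged library, and Flt3, Siglech and Cd209a had log2 fold changes below 0. The high dendritic sums thus rest mainly on Itgax. The libraries highest in Pdcd1 and Cd274 were also those highest in the macrophage sum and, through Itgax, in the dendritic sum. The part of either sum in the result was not tested. NK cell markers (6 genes) spanned 12.5 to 21.6 CPM (young) and 11 to 28.3 CPM (aged), and B cell markers (6 genes) over 325 to 361 and 70.0 to 485 CPM. Plasma cell markers (5 genes), which matter because plasma cells also use CD28, ranged over 330 to 675 and 430 to 1510 CPM. Monocyte markers (3 genes) spanned 759 to 976 CPM (young) and 1280 to 1640 CPM (aged), without overlap. Erythroid markers (3 genes, all with a log2 fold change below 0, median −1.12) spanned 969 to 1300 CPM (young) and 181 to 966 CPM (aged), without overlap. Osteoblast markers (3 genes, all below 0, median −1.82) spanned 1070 to 2980 CPM and 117 to 1230 CPM. Summed marker levels of some cell types thus differed between the age groups along with the 10 genes, while those of other cell types overlapped. The part of sample makeup in the differences of the 10 genes was not tested.

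**Figure D3:**
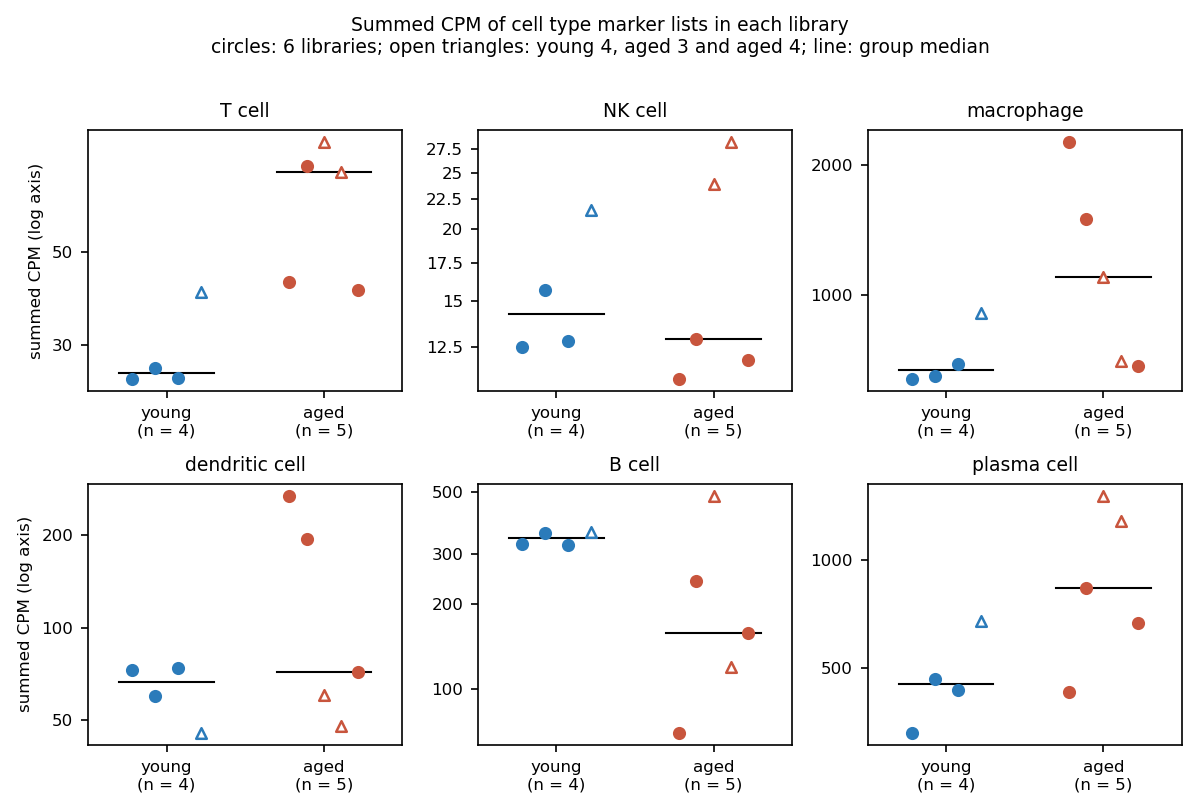
Summed CPM of 6 cell type marker lists in every library on log axes, with symbols for the libraries that stand apart as open triangles and lines for group medians. The T cell sums span 24.8 to 40.1 CPM (young) and 40.5 to 91.9 CPM (aged). Macrophage and dendritic cell sums are highest in aged 1 and aged 2, the dendritic sums there mainly through Itgax.

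Set against the T cell markers, the 10 genes fell into different patterns. Each gene's CPM was divided by the summed CPM of the T cell markers in the same library, as a description. Ctla4 was at 0.461%, 1.39%, 1.01% and 0.338% of the T cell marker sum in young 1 to 4. It was between 1.95% and 3.80% in the aged libraries (3.60-fold between means). Ctla4 was the only 1 of the 10 whose groups did not overlap in this ratio over all 9 libraries. The share of all genes that separate in this ratio was not computed. Ctla4 also rests on 2 to 8 counts per young library, so nothing is read from its separation. With deposited TPM in place of CPM the Ctla4 groups did overlap (2.65-fold).

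Tigit was at 0.508% to 3.03% of that sum in young libraries and at 1.93% to 7.90% in aged ones (2.45-fold between means). For Pdcd1 the ratio was 0.677% to 3.07% in young libraries, 67.4% and 19.8% in aged 1 and aged 2, and 0.734% to 3.34% in the other aged libraries. Icos, Tox, Foxp3 and Cd274 had ratios of means of 1.16, 1.30, 1.16 and 1.29, with overlapping groups. Lag3, Havcr2 and Cd28 were at 0.983, 0.851 and 0.709, that is, no higher in aged libraries relative to these markers. With TPM, Lag3 was at 1.02 and Foxp3 at 0.948. For the myeloid-expressed pair, the ratio to the summed macrophage markers had means 1.14-fold apart for Havcr2 and 1.42-fold apart for Cd274, both with overlapping groups.

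**Figure D4:**
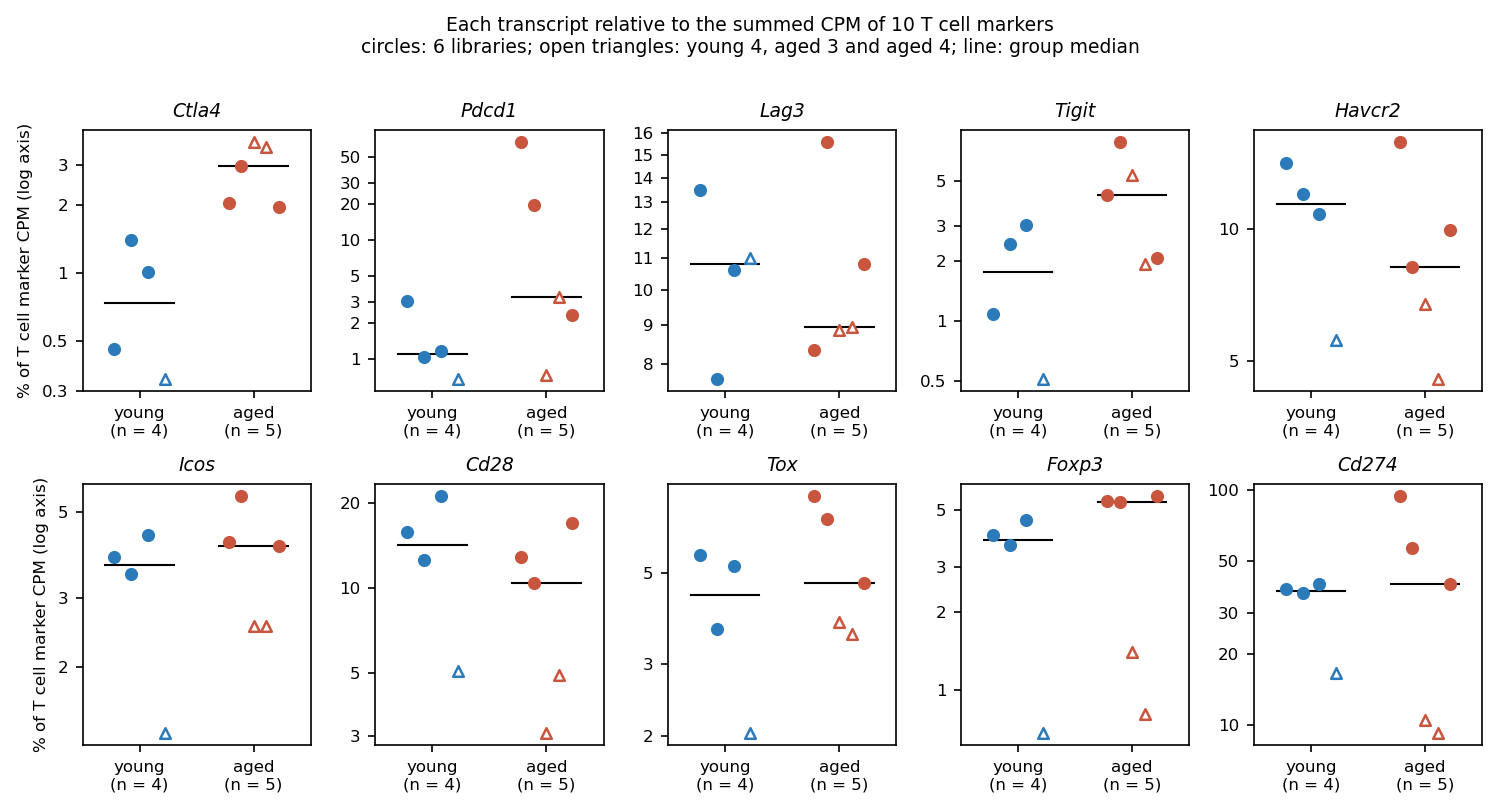
Each gene's CPM as a percentage of the summed CPM of 10 T cell markers in the same library, on log axes that differ between panels. Open triangles are young 4, aged 3 and aged 4, and lines are group medians. Ctla4 shows no overlap (young 0.338% to 1.39%, aged 1.95% to 3.80%), on 2 to 8 counts per young library. Lag3, Havcr2 and Cd28 do not lie higher in aged libraries.

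With age group means removed, the log2 levels of the 10 genes varied together over the 9 libraries in part. The most alike pairs were Icos and Tox (Pearson r = 0.876), Cd28 and Foxp3 (0.848), Foxp3 and Cd274 (0.827), Tigit and Icos (0.821) and Pdcd1 and its ligand gene Cd274 (0.797). Ctla4 ran against Cd274 (−0.359), Cd28 (−0.310) and Pdcd1 (−0.298). Lag3 and Ctla4 followed the T cell marker sum (0.832 and 0.720), whereas Pdcd1 and Cd274 followed the macrophage marker sum (0.731 and 0.695) and not the T cell sum (−0.233 and −0.403). Cd28 and Foxp3 lay further below 0 against the T cell sum (−0.585 and −0.478), and were at 0.0353 and 0.274 against the macrophage sum. Havcr2 was at −0.0915 and 0.632 against the T cell and macrophage sums. Tigit, Icos and Tox were at 0.444, 0.234 and 0.281 against the T cell sum, and at 0.320, 0.119 and 0.448 against the macrophage sum. These points share library composition, including the split of the 3 libraries from the 6.

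Among 14829 other genes, those most alike were chosen by the highest such correlation, a choice that by itself yields high values over 9 libraries. For Ctla4 they were 2310040G24Rik and Tnfrsf4 (0.978 and 0.965), the latter encoding OX40, a costimulatory receptor that regulatory T cells also carry. For Pdcd1 they were the stress-induced transcription factor genes Maff and Atf3 (0.974 and 0.965). Tigit was most like Art2b, a T cell surface ADP-ribosyltransferase gene, and Cd83, a marker of mature dendritic cells (0.963 and 0.920). Cd274 was most like Usp47 and Icam1 (0.994 and 0.991), and Foxp3 like Gbp9 and She (both 0.987). The likest genes were Zdhhc2 and Fkbp14 for Lag3 (0.967 and 0.925), and BC024978 and Spats2l for Havcr2 (0.980 and 0.968). They were Ankrd23 and Pdzrn3 for Icos (0.943 and 0.940), Ubr3 and Clec16a for Cd28 (0.975 and 0.965), and Shb and Rabep1 for Tox (0.942 and 0.913).

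Other genes of these pathways were read from fixed lists. Over 8 lists of other pathway genes, 63 of 73 genes were tested, 46 with a log2 fold change above 0 and 17 below (median 0.306), and 0 were called in the age-only fit, where 0% of all genes were called. With the library set term 2 of the 63 were called, 1 higher and 1 lower, beside 1.92% of all genes. Cd244a, an inhibitory and costimulatory receptor of NK and T cells, rose with a log2 fold change of 1.93 (SE 0.35, adjusted p = 0.0405 by edgeR), from 7.01 ± 1.60 CPM in young (SD, n = 4) to 25.4 ± 16.9 in aged libraries (SD, n = 5). Nt5e, the ectoenzyme CD73 that makes adenosine, fell with a log2 fold change of −0.92 (SE 0.20, adjusted p = 0.0492 by edgeR), from 14.8 ± 0.861 to 7.72 ± 2.04 CPM, and was lower in 5 of 5 aged libraries than in any young one. Both calls lay close to the threshold, and 0 pathway genes were called without any 1 of the 4 young libraries, aged 1, aged 2 or aged 4.

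Of the other B7 and CD28 family genes, 4 of 8 tested were above 0 and 4 below (median −0.019). Pdcd1lg2, the gene of PD-L2, had 0.484 ± 0.231 CPM (young) and 1.99 ± 1.88 CPM (aged; log2 fold change 2.03, SE 0.78, edgeR adjusted p = 0.466). Tnfrsf14, the receptor that binds BTLA, was at 56.0 ± 32.9 and 31.3 ± 24.2 CPM (adjusted p = 0.980) and lower in the 3 libraries that stand apart (log2 difference −3.34, edgeR adjusted p = 2.13e-06). The genes of the CD28 and CTLA-4 ligands, Cd80 and Cd86, were at 4.93 ± 0.534 and 5.50 ± 1.58 CPM, and at 11.5 ± 2.38 and 11.9 ± 4.29 CPM. These differences were smaller than the spread between aged libraries.

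TIGIT partners and nectin-binding receptors had 4 of 6 above 0 (median 0.37). Pvr, the poliovirus receptor gene whose product is the main ligand of TIGIT, was at 4.43 ± 0.580 and 7.95 ± 3.53 CPM (edgeR adjusted p = 0.490), and Nectin2 at 4.34 ± 0.842 and 5.93 ± 0.869 CPM (adjusted p = 0.692). LAG-3 and TIM-3 ligands had 2 of 4 above 0 (median −0.033), with Lgals9, the gene of galectin-9, at 132 ± 5.27 and 110 ± 37.7 CPM (adjusted p = 0.963) and Lgals3 at 297 ± 161 and 376 ± 172 CPM (adjusted p = 1).

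Costimulators of the TNF receptor family and their ligands had 5 of 5 tested genes above 0 (median 0.68). Tnfrsf9, the gene of 4-1BB, was at 1.00 ± 0.360 and 2.74 ± 0.641 CPM, higher in 5 of 5 aged libraries than in any young one (edgeR adjusted p = 0.297 by age alone and 0.058 with the library set), and Tnfrsf4 at 0.877 ± 0.328 and 2.36 ± 1.33 CPM (adjusted p = 0.418). Other regulatory T cell genes went both ways, 3 above and 4 below 0 of 7 tested. Il2ra, the interleukin-2 receptor alpha chain of regulatory T cells and of some B cell precursors, was at 6.85 ± 1.67 and 4.09 ± 3.01 CPM (adjusted p = 0.850). Izumo1r, the folate receptor 4 gene of regulatory and resting CD4 T cells, was at 0.746 ± 0.273 and 1.99 ± 1.25 CPM (adjusted p = 0.466). Il10, left out by the filter on low counts and named after its values were seen, had 3 to 7 counts in young libraries and 1 to 126 in aged ones, with the highest in aged 1.

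Transcription factors of T cell activation and exhaustion had 12 of 14 above 0 (median 0.35). Batf was at 6.44 ± 3.04 and 20.3 ± 10.3 CPM (edgeR adjusted p = 0.299), and Eomes, a factor of memory, exhausted and NK cells, at 2.34 ± 1.27 and 5.92 ± 2.20 CPM (adjusted p = 0.374). Genes of T cell receptor signalling and checkpoint phosphatases had 10 of 11 above 0 (median 0.53). Zap70, the kinase of the T cell receptor complex, was at 2.32 ± 0.628 and 4.85 ± 2.44 CPM (adjusted p = 0.428), and Lcp2, the gene of its adaptor SLP-76, which myeloid cells also use, at 118 ± 8.52 and 194 ± 74.8 CPM (adjusted p = 0.466).

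**Figure D5:**
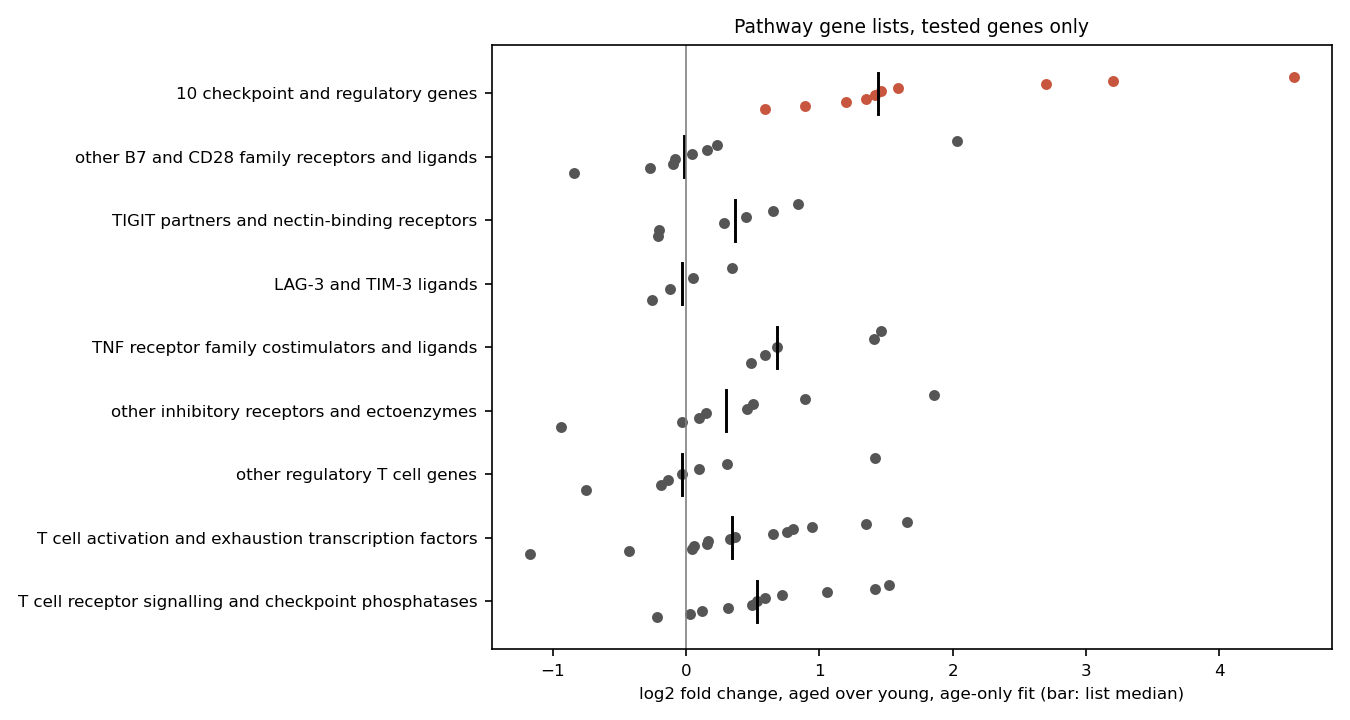
Log2 fold change, aged over young in the age-only fit, of each tested gene in 9 lists, with a bar at each list's median. The 10 genes described here, chosen with this contrast known, lie between 0.59 and 4.56, and the medians of the other lists lie between −0.033 and 0.68.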

How the data were processed

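All 9 libraries came from 1 table of 56980 Ensembl genes, in which 26623 had no count. The authors deposited estimated counts (an expected count per gene) whose totals differ between libraries, and rounding made them whole. The deposited TPM values (per length and library) served levels between genes. They were also an alternative scale for the separation of the age groups and for the T cell marker ratios. The deposited log2 fold changes and p-values are DESeq2 output per the file headers, without settings. Bowtie 0.12.2 and build mm8 appear in the submitters' processing notes without a role, and the quantifier is not given in the sources used here.

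The members and gene lists were chosen with earlier results of these data known. The 10 members are all named. From each of 8 pathway lists the text names genes called in either fit and those with the 2 smallest p-values (at most 4), and for each member the 2 most alike genes of at least 1 CPM. Cd80, Cd86 and Il10 were added after their values were seen.

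The main test was edgeR 4.0.16 in R 4.3.3 (quasi-likelihood F, two-sided, TMM, filterByExpr with a minimum count of 10 and total of 15, Benjamini-Hochberg over 16576 genes, threshold 0.05), with age alone, or with a term that sets aged 3, aged 4 and young 4 against the other libraries. The filter level was 0.477 CPM. All 10 members passed, though 0 young libraries reached that level for Ctla4, 1 for Pdcd1, 2 for Tigit and 3 each for Icos and Foxp3. These genes passed only with aged libraries counted in. For the other members all 4 young libraries reached it. Log2 CPM used a prior count of 2. Depth was 19804783 to 23548521 counts per library. No replicate pair agreed within sampling noise; the closest, young 3 with young 1, differed by a chi-square of 16.7 per gene. On simulated counts for the 16576 genes of the age-only comparison 5 of 100 genes with a 2-fold change and 72 of 100 with a 4-fold change were called. With the set term these were 55 and 90. The changed genes were drawn at random over all levels, and the age-only simulation held no library set difference. These rates therefore do not give the power for the 10 genes. Alternatives used DESeq2 1.42.0 and limma 3.58.1. Figures used Python 3.11.15 and matplotlib 3.10.9. Promoters are from RefSeq on GRCm38.p6; the deposited table has no coordinates.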

Additional observations from a re-analysis of the deposited data

Results flagged for a closer look

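In 20 groups of libraries (10 genes, young and aged), 2 held a library far from the rest of its own group, where chance marks about 1 group in 20. Pdcd1 in young 1 was at 0.760 CPM, with the next young library at 0.294 CPM, a gap that is 0.954 of the range of the young libraries; it rests on 20 counts. Icos in aged 2 was at 4.45 CPM, with the next aged library at 2.33 CPM, a gap that is 0.759 of the range of the aged libraries.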

How the results depend on the processing

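The 10 members kept a log2 fold change above 0 in all alternatives of the age-only fit, and 7 had a higher mean ratio to T cell markers in aged libraries with each of the 3 versions of that ratio, though not the same 7: Foxp3 was at 1.16 with CPM, 1.14 against the Cd3 genes and 0.948 with TPM, and Lag3 at 0.983, 0.97 and 1.02. The share of all genes with a higher ratio was not computed, and the members were chosen with the age contrast known, so nothing is read from these counts. Numbers of calls depended on the processing. In the age-only fit 0 genes, 0 members and 0 pathway genes were called. DESeq2 called 360, 5 and 4, and the set term gave 319, 1 and 2. A replicate block called 13 genes and the 6 libraries alone 2. Leaving out 1 library gave 0 to 6 genes, 6 without aged 5. With the set term (319 genes, 1 member, 2 pathway genes), DESeq2 called 1604, 10 and 12, no filter on low counts 997, 6 and 7, and library totals 118, 0 and 1. RLE factors called 1 pathway gene, and limma-voom 0 members. Leaving out 1 library with the set term gave 0 to 1633 genes, 0 to 6 members and 0 to 12 pathway genes, the highest without aged 3 for genes and pathway genes and without aged 5 for members. Library totals moved the share of called genes that were higher from 32% to 66.9% with the set term. For the difference between library sets, totals called 5 members in place of 3, beside 9003 of all genes in place of 8048. The share of called genes that was higher went from 50.6% to 21%. The cause was not tested in any of these.

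No label says that equal replicate numbers mark shared animals or days. Deviations of same-numbered libraries correlated at 0.456, 0.554, −0.387 and 0.739 for numbers 1 to 4. Aged 1, aged 2 and aged 4 were each most like the young library of their own number. Aged 3 was most like young 4, and both belong to the libraries that stand apart. The numbers were not taken as pairs because no label gives them that meaning, and whether they mark pairs was not tested. The replicate block with the library set called 1485 genes, 4 members and 11 pathway genes. In the difference between library sets it called 0 members, and the number over all genes was not counted. Depth limits Ctla4, Tigit and Pdcd1 in young libraries, with 19, 42 and 37 counts in all.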
